A study of Caenorhabditis elegans with 12 samples.

Results

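Ubiquinone (coenzyme Q) carries electrons within the mitochondrial inner membrane, and genes of its synthesis were followed here through mRNA sequencing of whole Caenorhabditis elegans. With them was kynu-1, the kynureninase gene that supplies the related rhodoquinone. The 9 genes (the members) were taken by symbol from a table of 45132: clk-1, coq-1, coq-2, coq-3, coq-4, coq-5, coq-6, coq-8 and kynu-1. All 9 were found and all 9 passed the filter on low counts, which kept 12850 genes. Each of 4 groups held 3 libraries of day 1 adults of the temperature-sensitive mutant strain glp-4(bn2), in which the germline does not develop at the restrictive temperature. The prp-19+atp-2 group was fed bacteria for prp-19 RNAi and atp-2 RNAi, the prp-19 group prp-19 RNAi without atp-2 RNAi, the L4440+atp-2 group the empty vector L4440 with atp-2 RNAi, and the L4440 group the empty vector without it. The product of prp-19 works in mRNA splicing, and that of atp-2 is a subunit of the mitochondrial ATP synthase. The labels do not say whether the 3 libraries of a group came from separate cultures, so p-values measure the spread between these libraries.

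Ubiquinone is built from an aromatic ring and a long isoprenoid tail that anchors it in the membrane. A prenyl synthase makes the tail, a transferase joins it to the ring, and a series of hydroxylases and methyltransferases then decorates the ring inside the mitochondrion. Worms also make rhodoquinone, a relative used when oxygen is scarce, whose ring comes from tryptophan through kynureninase. The finished quinone accepts electrons from complex I, complex II and other dehydrogenases and passes them to complex III. In worms, loss of clk-1 blocks a late step of the pathway and slows development and behaviour.

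The genes lie apart in the genome (WBcel235, the build named in the submitters' processing notes). clk-1 is at chrIII:5277894-5279344, coq-2 at chrIII:6935967-6939457, coq-5 at chrIII:7857315-7858457 and coq-8 at chrIII:4863427-4866948. coq-1 is at chrI:5412841-5415629, coq-4 at chrI:3869214-3870114, coq-3 at chrIV:14793104-14796324 and coq-6 at chrV:9336762-9338858, while kynu-1 is at chrX:6106927-6109338. Each is protein-coding with 2 to 10 introns in its longest form, and no other annotated gene overlaps any of them. coq-2 has 2 annotated transcripts and coq-3 has 3, and the counts per gene do not separate them.

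Library totals were 6731808 to 8802767 counts, and the members had between 72 and 3917 counts per library. Levels are given as CPM, counts scaled to a common library size with TMM factors (edgeR), which place libraries on one scale by the bulk of their genes. The replicates of the prp-19 group were the least alike, with a chi-square per degree of freedom of 43.0 and 23.8 for pairs with replicate 3 and 9.34 for the remaining pair. In the other groups it was 1.44 to 6.95. The mRNA of atp-2 averaged 504 ± 7.42 CPM in prp-19+atp-2 libraries, against 1013 ± 146 CPM in prp-19 libraries, and 267 ± 16.3 CPM in L4440+atp-2 libraries, against 1618 ± 15.4 CPM in L4440 libraries (SD, n = 3 each). The mRNA of prp-19 was not lower in the libraries labelled prp-19, at 54.3 ± 25.8 CPM, against 26.5 ± 1.95 CPM in L4440 libraries (SD, n = 3 each). It was called higher there (log2 fold change 1.04, edgeR quasi-likelihood test, adjusted p = 0.0401). With atp-2 RNAi it averaged 29.3 ± 11.3 CPM in prp-19+atp-2 libraries and 27.8 ± 0.208 CPM in L4440+atp-2 libraries, which overlapped (SD, n = 3 each). The prp-19 groups are therefore named by their labels. Of 10 germline markers all had reads, with a summed level of 168 to 188 CPM in prp-19+atp-2 libraries, 187 to 216 CPM in prp-19 libraries, 79.2 to 80.6 CPM in L4440+atp-2 libraries and 54.5 to 66.4 CPM in L4440 libraries. The summed level of 5 sperm markers ran from 1.11 to 3.77 CPM over the libraries, and of these msp-3 and msp-78 had 0 counts in all 12.

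The levels of the members differed widely when set per length of exon. In L4440 libraries kynu-1 stood at 357 ± 9.17 CPM per kb, coq-1 at 91.2 ± 7.48, coq-5 at 28.0 ± 0.643 and clk-1 at 25.3 ± 2.55 CPM per kb (SD, n = 3). coq-6, coq-3, coq-4, coq-2 and coq-8 followed between 21.5 and 15.7 CPM per kb. From clk-1 down to coq-8 each gene's libraries overlapped those of the next in the order, whereas kynu-1, coq-1 and coq-5 stood clear of their neighbours. In L4440+atp-2 libraries the order of level per kb was kynu-1, coq-1, clk-1, coq-5, coq-8, coq-3, coq-6, coq-4 and coq-2. There coq-8 was at 44.4 ± 2.67 CPM per kb and coq-2, the lowest, at 18.6 ± 0.926 CPM per kb (SD, n = 3). With the longest transcript as the length, coq-2 was at 20.6 CPM per kb and remained lowest.

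**Figure D1:**
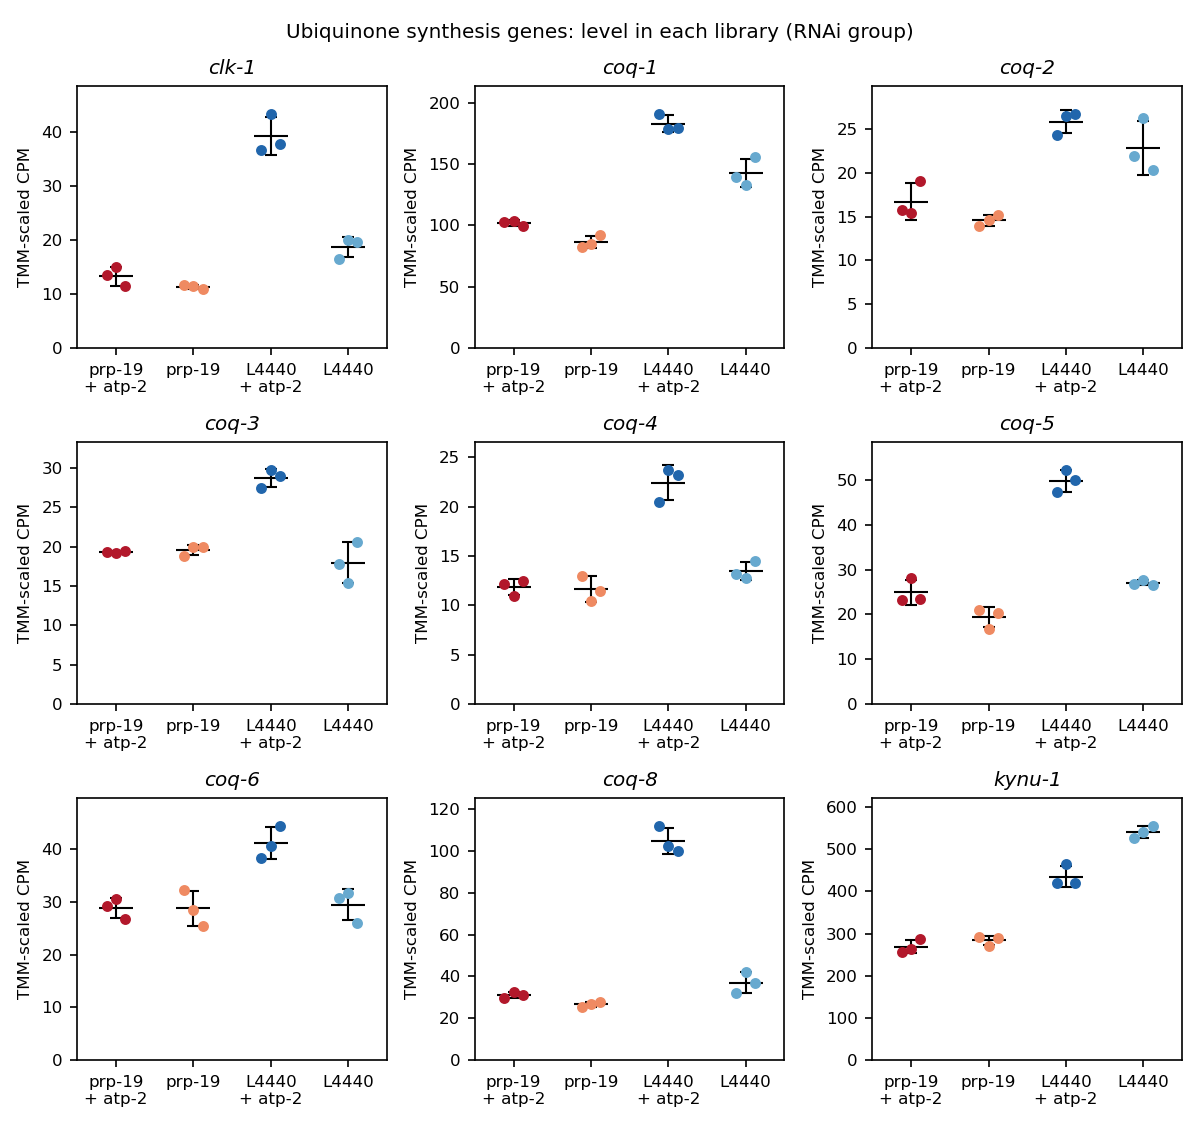
TMM-scaled CPM of each member in every library of the 4 RNAi groups. Points are libraries, and the bar and whiskers are the mean and SD of 3. All members but kynu-1 have their highest mean in the L4440+atp-2 group, and for coq-2 those libraries overlap the L4440 libraries.

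The first comparison asked how the members responded to loss of ATP synthase subunit mRNA when prp-19 had not been targeted. With atp-2 RNAi on L4440, 7 of the 9 members rose, kynu-1 fell, and coq-2 was not called (edgeR quasi-likelihood test, adjusted p under 0.05 over all genes). Over all genes tested, 17.0% were called higher and 17.1% lower. The median log2 fold change of the members was 0.68, against 0.03 over all 12850 genes. The rises ran from 1.28-fold for coq-1 to 2.83-fold for coq-8. Summed levels of marker genes differed between the same groups for some tissues. The summed level of 6 intestinal markers, most of it vitellogenin mRNA, was 112630 to 121968 CPM in L4440+atp-2 libraries, against 225609 to 286589 CPM in L4440 libraries. That of 4 hypodermal markers was 2816 to 2987 CPM in L4440+atp-2 libraries, against 1471 to 1645 CPM in L4440 libraries. None of the intestinal or hypodermal markers was at 0, but 2 of the 4 hypodermal markers averaged under 1 CPM in L4440 libraries. The sum of 4 body wall muscle markers was 7713 to 9414 CPM in L4440+atp-2 libraries, overlapping 5147 to 8817 CPM in L4440 libraries. For 5 neuronal markers it was 260 to 266 CPM, against 236 to 252 CPM. The part of these markers in the members' differences was not tested.

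coq-8 encodes an atypical kinase-like protein that yeast needs to keep its ubiquinone synthesis complex together. Its level was 112, 103 and 99.98 CPM in L4440+atp-2 libraries, against 32.3, 42.2 and 36.9 CPM in L4440 libraries. Those with atp-2 RNAi lay far above the others, and the log2 fold change was 1.503 (SE 0.0900, adjusted p = 1.95e-10). clk-1 encodes the hydroxylase of a late ring step. It had 36.7, 43.4 and 37.9 CPM in L4440+atp-2 libraries, against 16.6, 20.0 and 19.6 CPM in L4440 libraries. The groups did not overlap (log2 fold change 1.07, SE 0.113, adjusted p = 3.96e-07), a 2.11-fold rise.

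The methyltransferases of the ring rose as well. coq-5, which adds the methyl group on carbon, had 47.3, 52.3 and 49.99 CPM in L4440+atp-2 libraries, against 26.9, 27.8 and 26.6 CPM in L4440 libraries. Its replicates were close and the groups well apart (log2 fold change 0.88, SE 0.101, adjusted p = 1.20e-06). coq-3, which adds methyl groups on oxygen, had 27.4, 29.7 and 29.0 CPM in L4440+atp-2 libraries, against 17.8, 15.4 and 20.6 CPM in L4440 libraries. The L4440 libraries were the more scattered, and the groups did not overlap (0.68, SE 0.105, adjusted p = 4.62e-05).

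coq-4, whose yeast counterpart organises the synthesis complex, had 20.5, 23.7 and 23.2 CPM in L4440+atp-2 libraries, against 13.2, 12.8 and 14.5 CPM in L4440 libraries. All 3 libraries with atp-2 RNAi were above the 3 without it (log2 fold change 0.73, SE 0.118, adjusted p = 6.76e-05). coq-6, a flavin-dependent hydroxylase of the ring, had 38.4, 40.6 and 44.4 CPM in L4440+atp-2 libraries, against 30.7, 31.7 and 26.1 CPM in L4440 libraries. Again no library overlapped (0.48, SE 0.105, adjusted p = 0.00146).

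The synthesis of the tail and its joining to the ring followed. coq-1, the synthase of the tail, had 191, 179 and 179 CPM in L4440+atp-2 libraries, against 139.6, 133 and 155 CPM in L4440 libraries. This was a small change without overlap (log2 fold change 0.36, SE 0.0744, adjusted p = 0.000829). coq-2, the transferase that joins tail and ring, and whose splice forms are known to set the balance of rhodoquinone and ubiquinone in worms, had 24.4, 26.4 and 26.7 CPM in L4440+atp-2 libraries, against 21.96, 26.2 and 20.3 CPM in L4440 libraries. These libraries overlapped, and the log2 fold change was 0.18 (95% confidence interval -0.06 to 0.42, adjusted p = 0.249). With library totals in place of TMM factors it was called, at 0.44 (adjusted p = 0.00900), where the median of all genes was itself 0.29.

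kynu-1, the kynureninase, went the other way. Its level was 420.2, 464 and 421 CPM in L4440+atp-2 libraries, against 527, 542 and 555 CPM in L4440 libraries. All 3 libraries with atp-2 RNAi were lower, and the log2 fold change was -0.32 (SE 0.0704, adjusted p = 0.00163). With library totals this call was lost (-0.05, adjusted p = 0.671). For the 7 genes that rose, the call held under every alternative run, including the 12 fits that left out 1 library each.

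With prp-19 RNAi in both groups, the response to atp-2 RNAi was asked for again. Of the 9 members only coq-5 was called, higher; over all genes 5.06% were called higher and 4.72% lower. The median log2 fold change of the members was 0.20, against -0.00292 over all genes. coq-5 had 23.3, 28.2 and 23.5 CPM in prp-19+atp-2 libraries, against 21.1, 16.8 and 20.3 CPM in prp-19 libraries. The groups did not overlap, and the log2 fold change was 0.37 (SE 0.106, adjusted p = 0.0333). The call was lost without replicate 2 of the prp-19 libraries (0.27, adjusted p = 0.175) or replicate 2 of the prp-19+atp-2 libraries (0.28, adjusted p = 0.167), with the replicate block (adjusted p = 0.0514) and with DESeq2 (adjusted p = 0.0625).

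clk-1 had 13.5, 14.96 and 11.4 CPM in prp-19+atp-2 libraries, against 11.7, 11.4 and 10.9 CPM in prp-19 libraries. Replicate 3 with atp-2 RNAi lay among the libraries without it, and the log2 fold change of 0.22 was not called (95% confidence interval -0.05 to 0.49, adjusted p = 0.324). coq-8 had 29.9, 32.4 and 31.1 CPM in prp-19+atp-2 libraries, against 25.4, 26.7 and 27.9 CPM in prp-19 libraries. Every library with atp-2 RNAi was higher, yet the change of 0.22 was small and not called (95% confidence interval 0.02 to 0.42, adjusted p = 0.167).

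coq-1 had 102, 104 and 99.2 CPM in prp-19+atp-2 libraries, against 82.7, 85.1 and 91.9 CPM in prp-19 libraries. Its log2 fold change of 0.23 (SE 0.0757) fell just short of the threshold (adjusted p = 0.0580). It was called without replicate 3 of the prp-19 libraries (0.29, adjusted p = 0.00512) and without replicate 3 of the L4440 libraries (0.24, adjusted p = 0.0472). So 2 members were called in each of these fits, in place of 1.

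The remaining members were not called. coq-3 had 19.3, 19.3 and 19.4 CPM in prp-19+atp-2 libraries, against 18.9, 19.9 and 20.0 CPM in prp-19 libraries. coq-4 had 12.2, 10.9 and 12.5 CPM in prp-19+atp-2 libraries, against 13.01, 10.5 and 11.4 CPM in prp-19 libraries. coq-6 had 29.2, 30.6 and 26.7 CPM in prp-19+atp-2 libraries, against 32.2, 28.6 and 25.5 CPM in prp-19 libraries. In each of these the libraries overlapped, and the 95% confidence intervals of the log2 fold changes reached from -0.24 to 0.19, from -0.22 to 0.29 and from -0.22 to 0.22. coq-2 averaged 16.7 ± 2.06 CPM in prp-19+atp-2 libraries and 14.6 ± 0.629 CPM in prp-19 libraries, a change of 0.20 (adjusted p = 0.330; SD, n = 3 each). kynu-1 averaged 269 ± 15.4 CPM in prp-19+atp-2 libraries and 284 ± 11.1 CPM in prp-19 libraries, a change of -0.08 (adjusted p = 0.547; SD, n = 3 each).

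**Figure D2:**
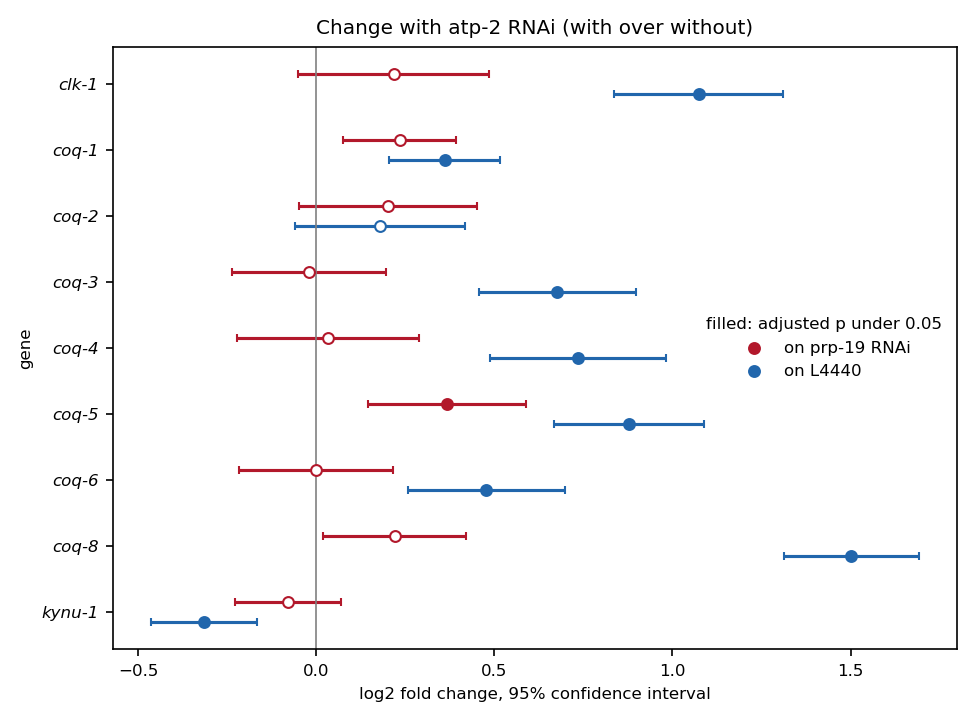
Log2 fold change of each member with atp-2 RNAi, on prp-19 RNAi (upper mark) and on L4440 (lower mark), with 95% confidence intervals from edgeR; filled marks have an adjusted p under 0.05. The marks for coq-8 stand at 0.22 on prp-19 RNAi and 1.503 on L4440, and those for coq-2 nearly coincide.

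Whether the response differed between prp-19 RNAi and L4440 was tested by the interaction, the atp-2 effect on prp-19 RNAi minus that on L4440. It was called lower for 6 of 9 members and for 9.14% of all genes, and 10.1% of all genes were called higher. The median interaction of the members was -0.51 on the log2 scale, against -0.03 over all genes. coq-8 differed most, at -1.28 (SE 0.132, adjusted p = 1.35e-06), followed by clk-1 at -0.86 (SE 0.171, adjusted p = 0.00147). coq-4 stood at -0.70 (SE 0.170, adjusted p = 0.00648) and coq-3 at -0.70 (SE 0.147, adjusted p = 0.00228). These 4 were called under every alternative run.

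The interactions of coq-5 and coq-6 were nearer the threshold. coq-5 stood at -0.51 (SE 0.146, adjusted p = 0.0186) and lost the call with DESeq2 (adjusted p = 0.0522). It was also lost without replicate 2 of the L4440+atp-2 libraries, replicate 1 of the prp-19 libraries, or replicate 1 or 3 of the prp-19+atp-2 libraries, at -0.47, -0.42, -0.46 and -0.47. coq-6 stood at -0.48 (SE 0.148, adjusted p = 0.0290) and lost the call with DESeq2 (adjusted p = 0.0773). It was also lost without replicate 3 of the L4440 libraries (-0.39), replicate 2 or 3 of the L4440+atp-2 libraries (-0.48 and -0.42), replicate 1 or 2 of the prp-19 libraries (-0.37 and -0.47), or replicate 1 or 3 of the prp-19+atp-2 libraries (-0.49 and -0.42). In these fits the adjusted p of coq-5 reached 0.0586 and that of coq-6 reached 0.0911. The count of members called lower was 4 with DESeq2.

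For coq-1, coq-2 and kynu-1 the interaction was not called. It was -0.13 for coq-1 (95% confidence interval -0.35 to 0.10, adjusted p = 0.450) and 0.02 for coq-2 (-0.32 to 0.37, adjusted p = 0.948), intervals that leave room for changes of moderate size. For kynu-1 it was 0.24 (95% confidence interval 0.03 to 0.45, adjusted p = 0.108), and it was called without replicate 3 of the prp-19 libraries (0.28, adjusted p = 0.0214). With library totals the interaction of coq-1 was called at -0.47 (adjusted p = 0.00510), where the median over all genes was -0.38.

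The next comparisons set the prp-19 libraries against the L4440 libraries. Where both groups had atp-2 RNAi, all 9 members fell, against 26.5% of all genes called lower and 26.5% called higher. The median log2 fold change of the members was -0.85, against 0.03 over all genes. In the lists of genes around the pathway, described below, 8 of 9 quinone-reducing enzymes outside complex I were also called lower (median -1.16). So were 6 of 7 genes of complex III and cytochrome c (median -1.13). Of the other lists, 5 of 7 kynurenine, 2 of 5 mevalonate and prenyl and 2 of 3 tyrosine genes were called lower, and 1 kynurenine gene higher. coq-8 averaged 31.1 ± 1.25 CPM in prp-19+atp-2 libraries and 105 ± 6.32 CPM in L4440+atp-2 libraries, differing by -1.75 on the log2 scale (SE 0.0885, adjusted p = 5.62e-12; SD, n = 3 each). clk-1 averaged 13.3 ± 1.77 CPM in prp-19+atp-2 libraries and 39.3 ± 3.56 CPM in L4440+atp-2 libraries, differing by -1.57 on the log2 scale (SE 0.112, adjusted p = 7.02e-10; SD, n = 3 each). These were the widest differences among the members, with levels 3.37-fold and 2.97-fold lower in the prp-19+atp-2 libraries.

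Among the others, coq-5 fell by 1.00 on the log2 scale (SE 0.0973), coq-4 by 0.91 (SE 0.113) and coq-1 by 0.85 (SE 0.0746). kynu-1 fell by 0.70 (SE 0.0709), coq-2 by 0.62 (SE 0.113), coq-3 by 0.57 (SE 0.0992) and coq-6 by 0.51 (SE 0.101). The adjusted p-values of these 7 were at most 0.000281. For each of the 9 members every prp-19+atp-2 library lay below every L4440+atp-2 library, and how often this holds over all genes was not counted. All 9 calls held under every alternative run.

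Without atp-2 RNAi, 6 of 9 members fell in the prp-19 libraries, where 28.5% of all genes were called lower and 30.0% higher. The median of the members was -0.49, against 0.06 over all genes. Of the lists around the pathway, 7 of 9 quinone-reducing enzymes (median -0.76) and 5 of 7 genes of complex III and cytochrome c (median -0.74) were called lower. All 3 tyrosine genes and 5 of 7 kynurenine genes were called lower too. Of 5 mevalonate and prenyl genes 1 was called lower and 1 higher. kynu-1 averaged 284 ± 11.1 CPM in prp-19 libraries and 541 ± 13.9 CPM in L4440 libraries, differing by -0.93 on the log2 scale (SE 0.0711, adjusted p = 1.69e-09; SD, n = 3 each). This was the widest difference of the 9 members, and the libraries were far apart. coq-1 fell by 0.72 (SE 0.0760), clk-1 by 0.71 (SE 0.128), coq-2 by 0.64 (SE 0.120), coq-5 by 0.49 (SE 0.109) and coq-8 by 0.47 (SE 0.0979), with adjusted p-values of at most 0.000852.

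coq-3, coq-4 and coq-6 were not called between these groups, with log2 fold changes of 0.13, -0.21 and -0.04. Their 95% confidence intervals were -0.10 to 0.35, -0.48 to 0.05 and -0.26 to 0.19. For each of the 3 genes every L4440+atp-2 library lay above every L4440 and every prp-19+atp-2 library. The share of all genes with this order was not counted. The calls in this comparison depended on scaling. With library totals, where the median of all genes was 0.54, coq-1 and kynu-1 were still lower (-0.24 and -0.45), coq-3 and coq-6 were called higher (0.61 and 0.45), and the other 5 were not called.

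The sum of the intestinal markers was 103132 to 120967 CPM in prp-19+atp-2 libraries, overlapping the L4440+atp-2 libraries given above, and 49954 to 156414 CPM in prp-19 libraries, below all L4440 libraries. The sum of the hypodermal markers was 2481 to 2562 CPM in prp-19+atp-2 libraries, below the L4440+atp-2 libraries, and 1986 to 2391 CPM in prp-19 libraries, above the L4440 libraries. The germline sum was higher in each prp-19 group than in its L4440 counterpart. Their part in the members' differences was not tested. In whole worms, fewer cells of a type and less RNA per cell cannot be told apart.

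**Figure D3:**
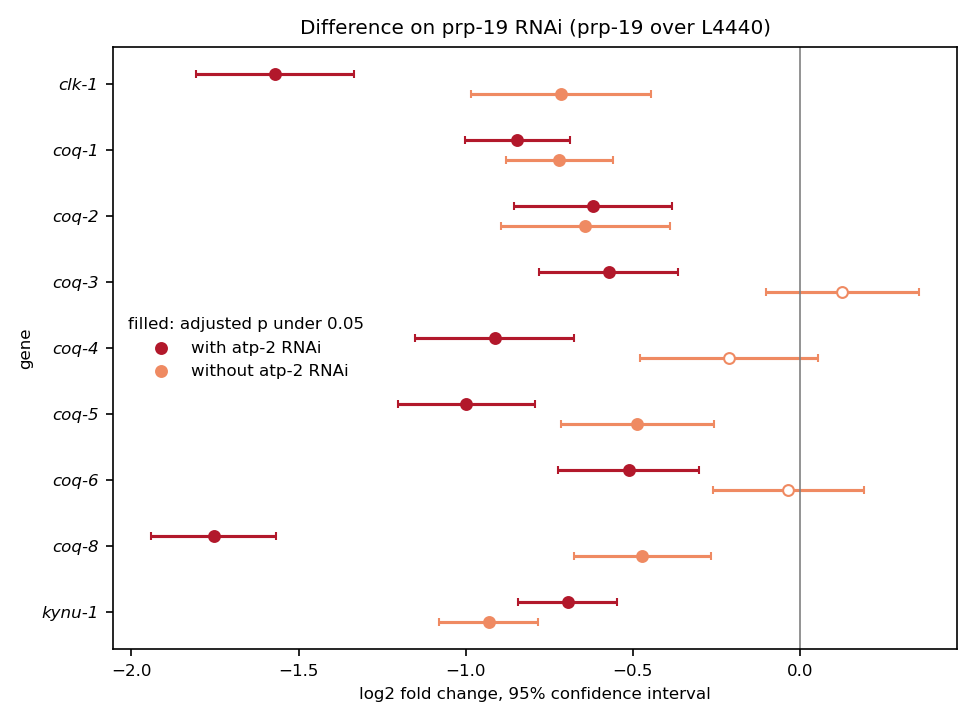
Log2 fold change of each member between prp-19 and L4440 libraries, with atp-2 RNAi in both (upper mark) and without it (lower mark), with 95% confidence intervals from edgeR; filled marks have an adjusted p under 0.05. With atp-2 RNAi all 9 lie below 0, from -0.51 for coq-6 to -1.75 for coq-8.

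The genes around the pathway were read from lists written from general knowledge. Over all genes, 17.0% were called higher and 17.1% lower with atp-2 RNAi on L4440. On prp-19 RNAi these shares were 5.06% and 4.72%, and the interaction was called lower for 9.14%. Nearest to the members in function are the genes of ubiquinol oxidation by complex III, listed together with those of cytochrome c. Of 8 such genes 7 passed the filter, and with atp-2 RNAi on L4440 6 of the 7 rose (median log2 fold change 0.78). On prp-19 RNAi 6 of the 7 were also called higher (median 0.42), and the interaction was called lower for 5. cyc-2.1, a cytochrome c, rose by 0.44 (SE 0.0716) on prp-19 RNAi and by 0.93 (SE 0.0722) on L4440. The complex III subunit ucr-1 rose by 0.87 (SE 0.0758) on L4440, and ucr-2.1 rose by 0.46 (SE 0.0866) on prp-19 RNAi.

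Enzymes that feed electrons to the quinone from outside complex I were found for 9 of 11 listed symbols. The symbols sqrd-2 and chdh-1 were not found among the genes counted. With atp-2 RNAi on L4440, 6 of the 9 were called higher and 1 lower (median 0.44). On prp-19 RNAi 3 were called higher (median 0.12). sdha-2, a flavoprotein subunit of complex II, rose by 0.49 (SE 0.0970) on prp-19 RNAi and by 1.46 (SE 0.0949) on L4440, an interaction of -0.97 (SE 0.136, adjusted p = 4.78e-05). mev-1, the cytochrome b subunit of complex II, rose by 0.64 (SE 0.0729) on L4440, and the iron-sulfur subunit sdhb-1 rose by 0.32 (SE 0.0684) on prp-19 RNAi.

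Of 5 mevalonate and prenyl genes, which supply the tail, 2 rose with atp-2 RNAi on L4440 (median 0.18). hmgs-1, the synthase that opens the mevalonate pathway, rose by 0.46 (SE 0.0910), and fdps-1, farnesyl diphosphate synthase, rose by 0.46 (SE 0.106). On prp-19 RNAi the 5 changes ran from -0.03 to 0.25, with adjusted p-values of at least 0.231.

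With atp-2 RNAi the listed genes of kynurenine metabolism showed no common direction. The 3 tyrosine genes all had negative log2 fold changes on L4440 (-0.46 to -0.06), of which 1 was called. On prp-19 RNAi 1 of these 3 was called higher and 1 lower. Of 8 other kynurenine pathway genes 7 passed the filter, and with atp-2 RNAi on L4440 1 was called higher and 2 lower. kmo-1, kynurenine monooxygenase, which acts just before kynu-1, fell by 0.31 (SE 0.0792) on prp-19 RNAi and by 0.28 (SE 0.0762) on L4440. haao-1, which breaks down the product of kynu-1, rose by 0.31 (SE 0.110) on L4440. Of 3 tyrosine genes hpd-1 rose by 0.34 (SE 0.0669) on prp-19 RNAi and fell by 0.22 (SE 0.0666) on L4440, an interaction of 0.56 (adjusted p = 0.000295), and pah-1 fell by 0.24 (SE 0.0680) on prp-19 RNAi. The symbols coq-9, coq-10 and coq-11 were looked up and not found among the genes counted.

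**Figure D4:**
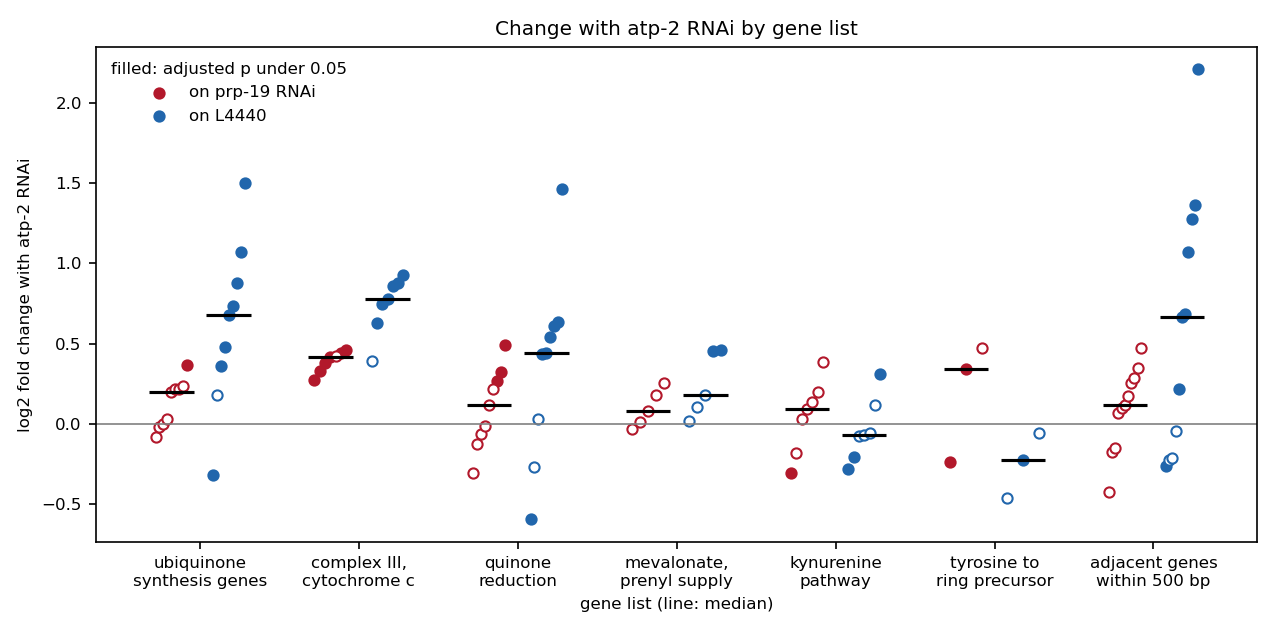
Log2 fold change with atp-2 RNAi of each gene that passed the filter, on prp-19 RNAi (left column of each list) and on L4440 (right column), for the members, 5 lists around the pathway and the genes adjacent to members; filled points have an adjusted p under 0.05 and lines are medians. The medians of the members are 0.20 on prp-19 RNAi and 0.68 on L4440.

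The members shared a feature of position. Of the 9, 8 had a protein-coding gene on the same strand within 500 bases, as did 31.4% of 19985 protein-coding genes in the annotation. In worms many such closely spaced genes are transcribed together as operons and separated by trans-splicing, and whether these genes are was not examined. There were 11 such neighbours, chosen by position after the members' values were known. With atp-2 RNAi on L4440, 7 of the 11 were called higher and 1 lower (median 0.66), against 17.0% and 17.1% of all genes. On prp-19 RNAi their changes ran from -0.42 to 0.47, with adjusted p-values from 0.0514 to 0.651.

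Around coq-8 the neighbours changed by similar amounts. C35D10.5, which ends directly before coq-8, rose by 1.36 (SE 0.161) on L4440, and C35D10.17, 113 bases downstream, rose by 1.28 (SE 0.1501), beside 1.503 for coq-8. nuo-3, a complex I subunit gene 94 bases upstream of coq-3, rose by 0.68 (SE 0.0933), beside 0.68 for coq-3, while gdi-1, 216 bases downstream of coq-3, stood at -0.05 (adjusted p = 0.638). tag-307, 72 bases downstream of coq-5, rose by 0.66 (SE 0.124), beside 0.88 for coq-5.

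In other pairs, too, the values were further apart. toc-1, 91 bases upstream of clk-1, stood at -0.21 on the log2 scale (adjusted p = 0.0844), beside 1.07 for clk-1. ucp-4, an uncoupling protein gene 90 bases upstream of coq-6, stood at -0.23 (adjusted p = 0.267), beside 0.48 for coq-6. byn-1, 104 bases upstream of coq-2, rose by 1.07 (SE 0.0831), beside 0.18 for coq-2. F57B9.3, 365 bases downstream of coq-2, rose by 2.21 (SE 0.2997). frm-4, 440 bases downstream of coq-1, fell by 0.26 (SE 0.0778), beside 0.36 for coq-1. pgk-1, the phosphoglycerate kinase gene 104 bases upstream of coq-4, rose by 0.22 (SE 0.0692), beside 0.73 for coq-4. The differences within these pairs were not tested.

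The genes most like 3 of the members were ranked by Pearson correlation of log2 CPM over the 12 libraries, which fall into 4 groups, among genes of at least 5 CPM on average. For clk-1 they were prx-19 (r = 0.991), bca-1 (0.990) and T20H4.5 (0.989). For coq-1 they were K07E3.4 (0.994), nep-22 (0.993) and nduf-5 (0.992). For kynu-1 they were ugt-12 (0.997), tre-1 (0.997) and ctg-1 (0.994). bca-1 averaged 25.2 ± 0.764 CPM in prp-19+atp-2 libraries, 21.7 ± 0.849 CPM in prp-19 libraries, 76.1 ± 3.56 CPM in L4440+atp-2 libraries and 36.8 ± 3.68 CPM in L4440 libraries (SD, n = 3 each). With Spearman correlation each of the 3 members had other genes at the top, with 0 of 3 shared, so the names depend on the measure.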

How the data were processed

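The authors deposited 1 table of raw read counts per gene for the 12 libraries. Per the submitters' processing notes, the build was ce11 (WBcel235) and STAR 2.7.5c, HISAT2 2.1.0, FastQC, R 4.0.5 and DESeq2 were used. Which of them did what, the counting program, its annotation and its treatment of strand and multiply mapped reads: not given in the sources used here. PolyA RNA was selected, per the labels' protocols. Columns were matched to samples by title.

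Counts were fitted with edgeR 4.0.16 in R 4.3.3 (filterByExpr by group, TMM, robust quasi-likelihood test, 1 coefficient per group, 8 residual degrees of freedom). Adjusted p-values are Benjamini-Hochberg over all 12850 genes tested, and a gene was called under 0.05. SE is the absolute log2 fold change over the square root of F. The fit was tested on counts simulated from 1 mean per gene, with a small set of genes changed in the L4440+atp-2 group. Far more genes were called in the data than were changed there, so the fit was not tested at that extent. Gene lengths and neighbours came from Ensembl release 115 of WBcel235. Totals of 6731808 counts or more make 1 count worth little beside the lowest member count of 72.

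The members and lists were chosen with earlier results of these data known. All members were named, with the 2 largest called changes of each list per atp-2 comparison. Alternatives were RLE factors, library totals with and without vitellogenins, DESeq2 1.42.0, no filter, a replicate block, fits of the compared groups and fits without each library. nkat-1 and cyc-2.2 did not pass the filter.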

Additional observations from a re-analysis of the deposited data

Results flagged for a closer look

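For 6 members the atp-2 effect differed between prp-19 RNAi and L4440 by a test of the difference itself (edgeR interaction, prp-19 RNAi minus L4440, log2 scale). The interactions were -1.28 for coq-8, -0.86 for clk-1, -0.70 for coq-4 (-0.701), -0.70 for coq-3 (-0.698), -0.51 for coq-5 and -0.48 for coq-6. The reduction of atp-2 mRNA itself also differed, at -1.01 on prp-19 RNAi and -2.60 on L4440 (interaction 1.59, edgeR adjusted p = 3.32e-08), and its part in the members' interactions was not tested.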

How the results depend on the processing

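Over 45 member and comparison pairs and the alternatives run, 783 of 846 values kept their direction and their side of the threshold, 26 lost a call, 7 gained one and 30 changed direction. Of the 30, 28 were called in neither fit. The other 2 came with library totals in the prp-19 effect without atp-2 RNAi, where the median of all genes was 0.54: coq-6 was 0.45 (adjusted p = 0.00878) and coq-8 was 0.0057 (adjusted p = 0.966). With library totals and with totals outside the vitellogenins, uncalled values changed direction for coq-4 in that comparison (0.273 and 0.0618), for coq-4 in the atp-2 effect on prp-19 RNAi (-0.0486 and -0.0244) and for the interaction of coq-2 (-0.32 and -0.10); so did coq-6 in the first with totals outside the vitellogenins (0.24) and the interaction of kynu-1 with library totals (-0.11). The atp-2 effect of coq-6 on prp-19 RNAi, -0.0006 as reported, was 0.00042 with DESeq2, 0.0102 with no filter, 0.00292 with the replicate block and 0.00237 in the fit of the compared groups. Without 1 library at a time, 16 uncalled values changed direction: the interaction of coq-2 ran from -0.0862 to 0.101, the atp-2 effect on prp-19 RNAi from -0.0368 to 0.00545 for coq-3, from -0.0383 to 0.133 for coq-4 and from -0.0656 to 0.0981 for coq-6, and the prp-19 effect of coq-6 without atp-2 RNAi from -0.141 to 0.0125. The prp-19 comparison without atp-2 RNAi had 2 members called higher and 2 lower with library totals and 1 higher and 4 lower with totals outside the vitellogenins. Of the atp-2 effect on prp-19 RNAi, 0 members were called with library totals, with totals outside the vitellogenins, with DESeq2, with the replicate block and in the fit of the compared groups alone, where 1, 2, 2, 3 and 3 members had an unadjusted p under 0.05. Without 1 library at a time this count was 0 to 2. The counts of the other comparisons stayed within 1.5 times of the reported ones. With library totals the atp-2 effect on L4440 had 8 members higher and 0 lower, and over all genes 4392 higher and 991 lower, where the reported fit had nearly equal numbers. Over all genes the atp-2 effect on prp-19 RNAi had 1256 calls, against 547 in the fit of the compared groups and 696 to 2888 without 1 library (2888 without replicate 3 of prp-19), and the interaction had 2476, against 4003 with library totals. The labels give replicate numbers and nothing on what same-numbered libraries share. Correlations of the deviations of same-numbered libraries ran from -0.0403 to 0.120. In the prp-19 effect they were 0.0268 to 0.0582 with atp-2 RNAi, against at most 0.00157 for other pairs. Without atp-2 RNAi they were 0.0400 to 0.120, against at most 0.0305. In the atp-2 effect on prp-19 RNAi they were -0.0403 to -0.00244, against -0.106 to 0.134. On L4440 they were 0.0128 to 0.0771, against -0.0501 to 0.0215, and not every library correlated best with its own number. The block left the other calls of members as they were. Of the members, clk-1, coq-2 and coq-4, all of low count, had the widest intervals.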

Other observations

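Among the lists, 3 genes showed larger differences between prp-19 and L4440 libraries than any member in both comparisons, with and without atp-2 RNAi, and they were singled out after their values were seen. afmd-1, the arylformamidase of the kynurenine pathway, stood at a log2 fold change of -2.33 (SE 0.180) with atp-2 RNAi in both groups and -2.54 (SE 0.189) without it. acsd-1, a decarboxylase that acts after kynu-1 and haao-1, stood at -1.91 (SE 0.115) with atp-2 RNAi and -2.18 (SE 0.120) without it. sqrd-1, the sulfide:quinone oxidoreductase, stood at -3.44 (SE 0.176) with atp-2 RNAi and -3.29 (SE 0.176) without it. The edgeR adjusted p was at most 2.91e-09 in each of these, and the atp-2 effects of the 3 genes were not called on prp-19 RNAi (adjusted p of at least 0.414) or on L4440 (at least 0.646).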
